A study of Mus musculus with 48 samples.

Results

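The 10 genes described here belong to the unfolded protein response, the programme by which a cell answers misfolded protein in the endoplasmic reticulum (ER). They were taken by name from the table of 18782 genes measured in mouse thoracic aorta, in which all 10 were found: Hspa5, Hsp90b1, Pdia4, Dnajb9, Sdf2l1, Creld2, Xbp1, Atf4, Ddit3 and Trib3. RNA was sequenced from 48 wild-type (WT) C57BL/6J mice, with 1 library per mouse. Control males (MaCon, n = 10) and control females (FeCon, n = 10) drank normal water. The remaining mice drank water with 0.4% β-aminopropionitrile (BAPN), an inhibitor of the lysyl oxidases that cross-link collagen and elastin, for 28 days from 3 weeks of age. Mice on BAPN that developed aortic dissection or aneurysm formed MaAAD (n = 7) and FeAAD (n = 9), and those without a detected lesion formed MaNonAD (n = 4) and FeNonAD (n = 8). All 48 mice survived to the endpoint, so mice that died of rupture are not represented, and NonAD and AAD were set apart by outcome rather than by treatment.

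Membrane sensors watch over folding in the ER lumen. IRE1 (encoded by Ern1) splices the mRNA of the transcription factor XBP1, ATF6 is cut in the Golgi to release a transcription factor, and PERK (encoded by Eif2ak3) phosphorylates eIF2alpha and so favours translation of ATF4. XBP1 and ATF6 raise ER chaperones and folding enzymes, whereas ATF4 raises amino acid metabolism genes together with Ddit3 (which encodes CHOP) and Trib3. In the aortic wall, smooth muscle cells and fibroblasts secrete large amounts of matrix protein through the same compartment. Counts per gene do not separate spliced from unspliced Xbp1 mRNA, and they do not report on translation of Atf4.

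Promoter windows of members are shown because ATF6 and XBP1 are known to act through short promoter elements. In RefSeq windows of GRCm38.p6 that run from 250 bases before to 50 bases after each gene's start, an exact ER stress response element (ERSE: CCAAT, any 9 bases, then CCACG, searched on both strands) was found in 3 of the 10 members and in 0.119% of 32851 windows in all. The Hspa5 window (chr2:34771840-34772139, plus strand) held 1 element, the Hsp90b1 window (chr10:86705395-86705694, minus strand) held 2, and the Creld2 window (chr15:88819396-88819695, plus strand) held 1. The Sdf2l1 window (chr16:17132334-17132633, minus strand), shown for comparison because Sdf2l1 had the largest fold change of the members in FeAAD against FeCon, held no exact match. Capitals mark the element, which appears as its reverse complement where it lies on the opposite strand.
Hspa5: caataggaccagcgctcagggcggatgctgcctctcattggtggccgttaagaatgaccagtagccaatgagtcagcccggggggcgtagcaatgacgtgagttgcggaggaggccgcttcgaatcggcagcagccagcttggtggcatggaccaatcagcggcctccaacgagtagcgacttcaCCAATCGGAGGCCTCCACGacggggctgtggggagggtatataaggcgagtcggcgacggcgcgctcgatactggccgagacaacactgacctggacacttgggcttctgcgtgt
Hsp90b1: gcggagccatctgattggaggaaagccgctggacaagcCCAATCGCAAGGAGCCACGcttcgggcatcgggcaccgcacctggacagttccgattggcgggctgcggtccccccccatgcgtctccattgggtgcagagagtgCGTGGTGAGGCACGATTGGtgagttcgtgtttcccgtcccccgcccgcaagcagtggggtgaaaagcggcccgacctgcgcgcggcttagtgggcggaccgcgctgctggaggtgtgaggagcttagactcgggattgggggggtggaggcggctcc
Creld2: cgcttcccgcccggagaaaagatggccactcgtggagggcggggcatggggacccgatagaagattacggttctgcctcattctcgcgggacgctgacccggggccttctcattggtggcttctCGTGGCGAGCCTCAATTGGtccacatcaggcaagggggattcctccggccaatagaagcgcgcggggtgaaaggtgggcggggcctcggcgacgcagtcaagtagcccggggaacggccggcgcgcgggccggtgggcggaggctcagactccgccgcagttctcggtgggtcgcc
Sdf2l1: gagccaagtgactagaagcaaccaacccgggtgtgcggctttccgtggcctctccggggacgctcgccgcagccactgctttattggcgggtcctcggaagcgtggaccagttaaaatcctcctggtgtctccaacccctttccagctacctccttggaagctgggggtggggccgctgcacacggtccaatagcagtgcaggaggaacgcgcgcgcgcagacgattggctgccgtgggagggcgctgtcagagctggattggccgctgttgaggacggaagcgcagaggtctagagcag
The first and last bases of the element were at -65 and -47 from the start of Hspa5, at -212 and -194 and again at -107 and -89 in Hsp90b1, and at -126 and -108 in Creld2. Among 22 other genes of ER folding, 18 had a window and 5 of these held an exact element, shown here on the strand of the match.
Calr: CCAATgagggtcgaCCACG
Canx: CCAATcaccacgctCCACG
Pdia6: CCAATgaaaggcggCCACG
Dnajc3: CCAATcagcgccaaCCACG
Ero1b: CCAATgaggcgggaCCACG
A C/EBP-ATF response element (CARE, TGATGNAA, both strands) lay in 1 member window, that of Trib3, at 14 to 21 bases after its start, and in 3.97% of all windows. It was found in 7 of 21 windows of integrated stress response genes, among them Slc7a11 with 2 matches. The unfolded protein response element TGACGTGG, found in 0.676% of all windows, was in none of the 10. A match gives letters in a window and does not show that a factor was bound.

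Library totals ranged from 13548003 to 17281262 counts with a median of 15681333.5, and the lowest count of any member in any library was 42, in Trib3. Levels are given as CPM, which are counts scaled to a common library size after TMM normalization. All 10 members passed the filter on low counts, with 14431 of the 18782 genes. A gene was called where its adjusted p was under 0.05 in edgeR's quasi-likelihood test, with Benjamini-Hochberg adjustment over all 14431 genes. Replicates are separate mice, and in bulk tissue a change in cell makeup and a change in RNA per cell cannot be told apart.

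Per kilobase of exon, Hspa5 was the most abundant member, with a median level of 160.6 CPM per kb over 48 libraries. Hspa5, also called BiP, is the Hsp70 chaperone of the ER and holds the sensors inactive. Hsp90b1 (GRP94), the Hsp90 of the ER, followed at 136.1 CPM per kb and was below Hspa5 in 35 of 48 libraries. Atf4 had 75.4, the disulfide isomerase Pdia4 58.3, Xbp1 53.8 and Creld2 25.6 CPM per kb. Dnajb9 (ERdj4), a J-domain partner of Hspa5, had 16.2, Ddit3 13.2 and Sdf2l1, a partner of Hspa5 in the lumen, 11.9 CPM per kb. Trib3, a pseudokinase induced by ATF4 and CHOP, had the lowest level at 2.41 CPM per kb. The order differed between groups. In MaAAD the median of Hsp90b1 was 185.8 and that of Hspa5 172.7 CPM per kb, and in FeAAD they were 182.2 and 164.7. Pdia4 and Atf4 had medians of 76.3 and 75.4 in MaAAD and of 77.0 and 75.4 in FeAAD. In the other groups Hspa5 was above Hsp90b1 and Atf4 above Pdia4 by their medians. Most neighbours in the pooled order overlapped. Pdia4 was above Xbp1 in 26 of 48 libraries and Ddit3 above Sdf2l1 in 25. Xbp1 was above Creld2, and Sdf2l1 above Trib3, in all 48.

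**Figure D1:**
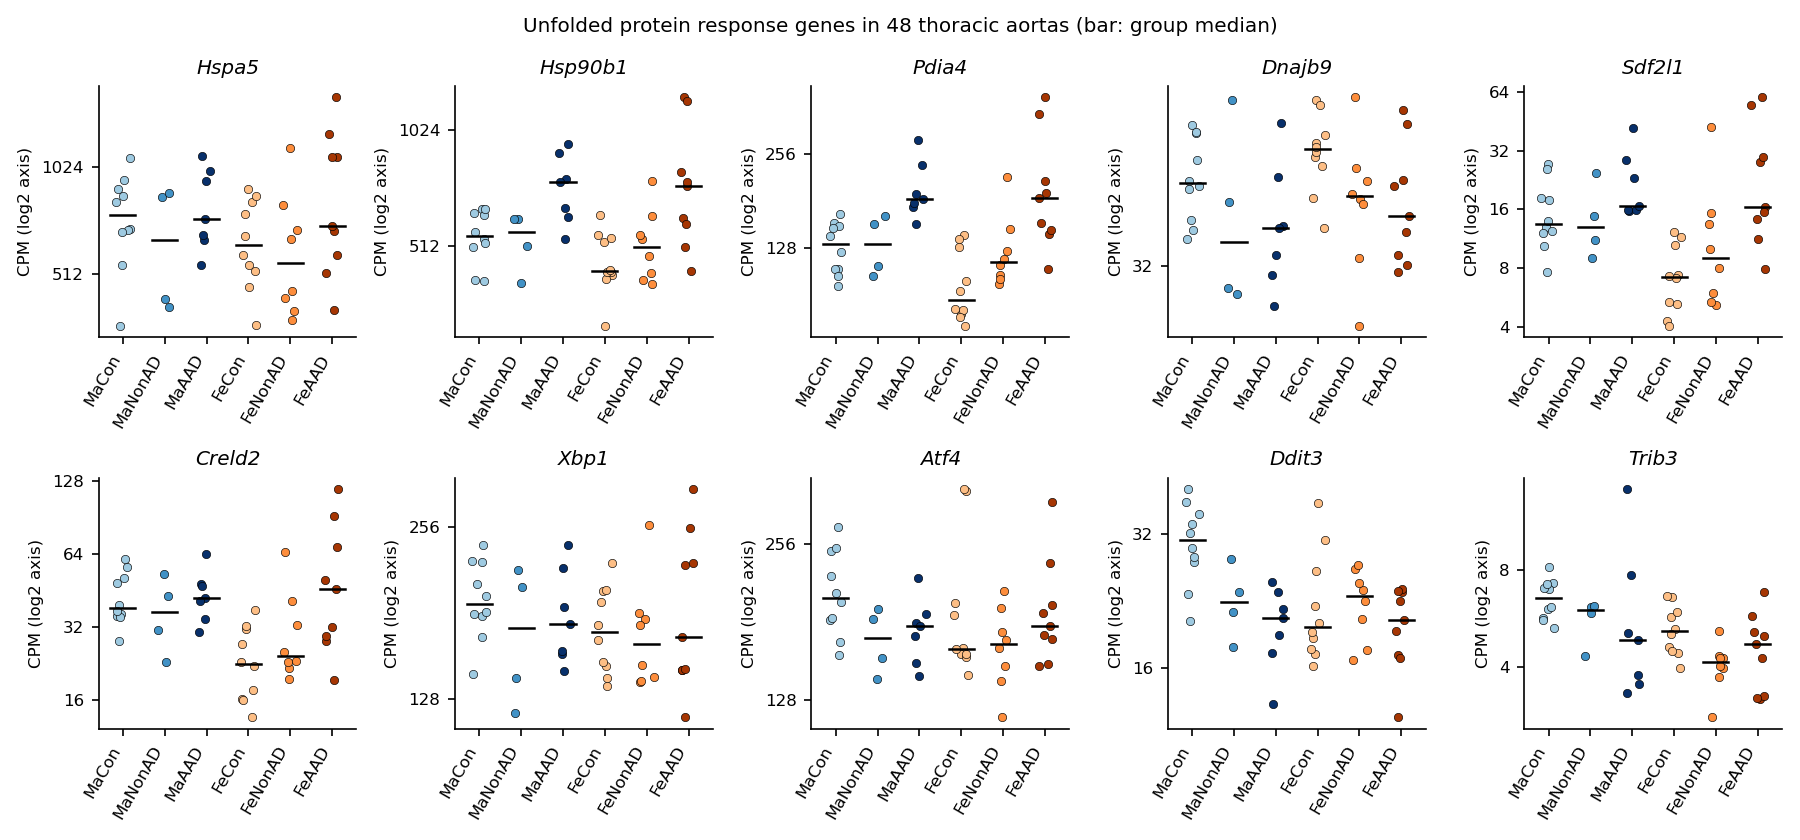
Level of each of the 10 genes in 48 thoracic aortas, in CPM on a log2 axis, by group. Each point is 1 mouse and each bar the group median. In FeAAD the highest Sdf2l1 value is 59.9 CPM and the lowest 7.94 CPM, whereas Ddit3 in MaAAD stays at or below 24.9 CPM.

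Aortas of females with dissection or aneurysm had more RNA of several ER folding genes than aortas of control females. The comparison FeAAD against FeCon asked which genes differed between mice with a lesion and untreated mice of the same sex. Of the 10 members 4 were called, all higher in FeAAD: Hsp90b1, Pdia4, Sdf2l1 and Creld2. Over all genes 44.4% were called in this comparison and 23.8% were called as higher, so the members' share called was near that of all genes.

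Sdf2l1 rose most. Its level in FeCon was 4.05 CPM at the lowest, 7.23 at the median and 12.2 at the highest, and in FeAAD 7.94, 16.5 and 59.9 CPM. Of 9 FeAAD aortas 7 lay above every FeCon aorta, and the fold change was 3.52 (log2 fold change 1.82, SE 0.35, adjusted p = 4.667e-05).

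Creld2, an ER-resident and secreted protein with EGF-like repeats that is induced by ER stress, ran from 13.6 CPM over a median of 22.7 to 37.7 in FeCon and from 19.3 over 46.0 to 119.3 CPM in FeAAD. The groups overlapped, with 5 of 9 FeAAD aortas above all FeCon aortas. The fold change was 2.26 (log2 fold change 1.18, SE 0.26, adjusted p = 0.0001948).

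Pdia4, which forms and rearranges disulfide bonds, showed the cleanest separation of the 4. FeCon values ran from 71.9 CPM over a median of 87.3 to 140.3, and FeAAD values from 109.6 over 184.6 to 388.1 CPM. All but 1 of the 9 FeAAD aortas were above the highest FeCon aorta, and the fold change was 2.10 (log2 fold change 1.07, SE 0.18, adjusted p = 5.627e-06). Hsp90b1 went from 319.4, 442.3 and 615.5 CPM (lowest, median and highest) in FeCon to 442.5, 734.8 and 1241 CPM in FeAAD. Its fold change was 1.62 (log2 fold change 0.70, SE 0.15, adjusted p = 0.0001996), under the 2-fold limit that the other 3 passed. With that limit 12.7% of all genes were called.

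Hspa5 itself did not pass the test. Its values were 366.7, 615.4 and 887.3 CPM (lowest, median and highest) in FeCon and 406.2, 696.7 and 1601 CPM in FeAAD, and the test gave 0.45 (log2 fold change, SE 0.23, adjusted p = 0.1021). Without FeAAD 4 it was called (0.54, SE 0.22, adjusted p = 0.04354). FeAAD was spread into a lower set of 5 aortas, up to 696.7 CPM, and a higher set of 4 (FeAAD 5, 6, 7 and 9) from 1087 CPM upwards. In Dnajb9 the log2 fold change was -0.23 (SE 0.12, adjusted p = 0.1254), on the other side of 0 from the chaperones.

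The transcription factor genes Xbp1, Atf4 and Ddit3, and the pseudokinase gene Trib3, did not pass the test in females. Xbp1 had a median of 167.3 CPM in FeCon and 164.0 in FeAAD (log2 fold change 0.15, 95% interval -0.13 to 0.44), and Atf4 161.1 and 177.8 CPM (log2 fold change -0.02, interval -0.31 to 0.26). Ddit3 ran from 16.2 to 37.4 CPM in FeCon and from 12.4 to 24.0 CPM in FeAAD (log2 fold change -0.17, interval -0.46 to 0.11). Trib3 ran from 3.97 to 6.64 CPM in FeCon and from 3.18 to 6.83 CPM in FeAAD (log2 fold change -0.20, interval -0.56 to 0.16). The adjusted p of these 4 was at least 0.3472.

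FeAAD 5 and FeAAD 9 held the 2 highest levels of Hspa5, Hsp90b1, Pdia4, Sdf2l1, Creld2 and Xbp1 among the 9 FeAAD aortas. Without both, chosen after their values were seen, the same 4 members were called, with log2 fold changes of 1.24 for Sdf2l1, 0.73 for Pdia4, 0.72 for Creld2 and 0.43 for Hsp90b1, beside 37.5% of all genes called in that fit.

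**Figure D2:**
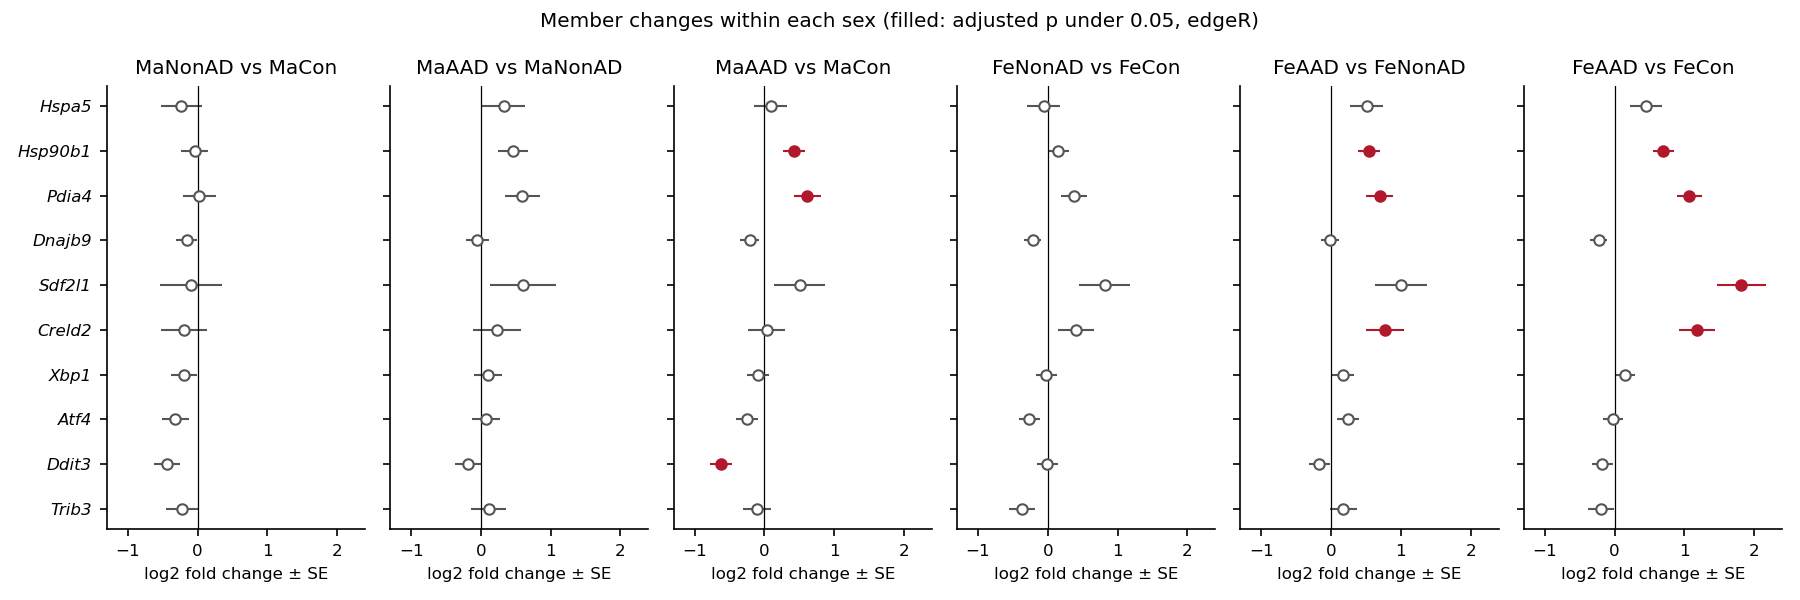
Log2 fold change of each member, with its standard error as a bar, in the 6 comparisons within a sex. Filled red points have an adjusted p under 0.05: 3 in MaAAD against MaCon, 4 in FeAAD against FeCon, 3 in FeAAD against FeNonAD and 0 in the other panels.

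In males, 2 folding genes were higher and CHOP was lower in aortas with a lesion. In MaAAD against MaCon 3 of 10 members were called, beside 35.0% of all genes, and 2 were called as higher, beside 18.9% of all genes. Both shares were near those of all genes. Pdia4 was 96.7, 131.7 and 163.8 CPM (lowest, median and highest) in MaCon and 152.7, 183.0 and 283.6 CPM in MaAAD. Of 7 MaAAD aortas 6 were above all MaCon aortas (fold change 1.53, log2 fold change 0.62, SE 0.19, adjusted p = 0.01013). Hsp90b1 was 416.9, 545.2 and 638.3 CPM in MaCon and 533.9, 749.0 and 942.0 CPM in MaAAD (log2 fold change 0.42, SE 0.16, adjusted p = 0.03621). Its call was lost without MaAAD 2, 4, 5 or 7 or MaCon 8, each left out alone, with adjusted p of up to 0.1087. None of the 3 reached a 2-fold change, which 11.4% of all genes did together with an adjusted p under 0.05.

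Ddit3, which encodes the transcription factor CHOP that promotes apoptosis under lasting ER stress, fell in MaAAD. Its level was 20.4, 30.9 and 40.3 CPM (lowest, median and highest) in MaCon and 13.3, 20.7 and 24.9 CPM in MaAAD. Every MaAAD aorta was below the MaCon median, and 8 of 10 MaCon aortas were above every MaAAD aorta (log2 fold change -0.62, SE 0.16, adjusted p = 0.001606). Among all genes 16.1% were called as lower.

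The other male members did not pass. Sdf2l1 had medians of 13.4 CPM in MaCon and 16.6 CPM in MaAAD (log2 fold change 0.51, SE 0.37, adjusted p = 0.2898). Hspa5 had 748.1 and 730.3 CPM (log2 fold change 0.09, 95% interval -0.38 to 0.56), and Creld2 38.5 and 42.2 CPM (log2 fold change 0.03, interval -0.50 to 0.56). Dnajb9, Xbp1, Atf4 and Trib3 had log2 fold changes of -0.21, -0.09, -0.25 and -0.11, with adjusted p of at least 0.2123. In Trib3, MaAAD 5 had 14.2 CPM where the other 6 MaAAD aortas had 3.32 to 7.72. Without MaAAD 5 Trib3 was called as lower (log2 fold change -0.47, SE 0.17, adjusted p = 0.02504).

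No member passed the test in BAPN mice without a lesion. In replicate order, the 4 MaNonAD values were 411.8, 435.6, 842.5 and 863.2 CPM for Hspa5 and 11.1, 9.04, 24.4 and 14.8 CPM for Sdf2l1. Both genes were lower in MaNonAD 1 and 2 than in MaNonAD 3 and 4, and all 8 values lay within the range of MaCon. In Ddit3 the 4 MaNonAD values, 21.3, 28.1, 23.7 and 17.8 CPM, were all below the MaCon median of 30.9 CPM (log2 fold change -0.44, SE 0.19, adjusted p = 0.3104). In MaNonAD against MaCon edgeR called 0 of 10 members, 1 had an unadjusted p under 0.05 and DESeq2 called 0, where 0.624% of all genes were called and 12.0% had an unadjusted p under 0.05. In FeNonAD against FeCon edgeR and DESeq2 both called 0, 1 had an unadjusted p under 0.05 in edgeR, and 14.5% of all genes were called, with 28.9% at an unadjusted p under 0.05. The largest female change was again Sdf2l1, at 5.21, 9.00 and 42.3 CPM (lowest, median and highest) in FeNonAD (log2 fold change 0.82, SE 0.36, adjusted p = 0.1226). The 42.3 CPM came from FeNonAD 8, which had the highest level in its group of every member but Trib3.

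The comparisons within a sex share libraries, so their values are given side by side and no overlap is counted. Between the outcomes of BAPN, 3 members were higher in FeAAD than in FeNonAD: Pdia4 (log2 fold change 0.70, SE 0.19, adjusted p = 0.008649), Hsp90b1 (0.54, SE 0.16, adjusted p = 0.01421) and Creld2 (0.77, SE 0.27, adjusted p = 0.03843). Sdf2l1 had a log2 fold change of 1.00 (SE 0.37) and missed the threshold at an adjusted p of 0.05085. Among all genes 18.2% were called, 13.2% called as higher and 7.04% called with a 2-fold change as well, as were 0 members. Without FeAAD 5, 1 member and 10.4% of all genes were called, without FeAAD 9, 1 member and 14.4% of all genes, and without both, 0 members and 7.80% of all genes. Without FeNonAD 8, 5 members and 20.6% of all genes were called. In MaAAD against MaNonAD 0 members were called by edgeR or DESeq2, with 2 at an unadjusted p under 0.05 in edgeR (Hsp90b1 and Pdia4, log2 fold changes 0.46 and 0.59) and 0.409% of all genes called by edgeR (18.7% at an unadjusted p under 0.05). DESeq2 called 5.33% of all genes, and edgeR called 524 genes without MaNonAD 1 and 0 without MaNonAD 2, 3 or 4.

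Control males had more Sdf2l1, Creld2 and Ddit3 than control females. For Sdf2l1, MaCon ran from 7.66 over a median of 13.4 to 27.2 CPM and FeCon from 4.05 over 7.23 to 12.2 CPM, and 7 of 10 MaCon aortas were above every FeCon aorta (log2 fold change 1.08, SE 0.35, adjusted p = 0.02875). For Creld2 every MaCon aorta was above the FeCon median (log2 fold change 0.86, SE 0.25, adjusted p = 0.01704). For Ddit3 the medians were 30.9 and 19.7 CPM (log2 fold change 0.45, SE 0.14, adjusted p = 0.02665). In this comparison 14.3% of all genes were called and 6.38% called as higher in males. With a 2-fold limit Sdf2l1 alone was called, beside 1.51% of all genes. FeCon 10 carried the highest summed level of heart muscle markers, 651.3 CPM against a FeCon median of 134.4 CPM, and without it Creld2 alone was called (adjusted p = 0.03753), with Sdf2l1 at 0.05626 and Ddit3 at 0.05348, and 9.76% of all genes were called. An index of circadian clock genes, defined below, had medians of -0.11 in MaCon and -3.05 in FeCon. With it as a covariate Ddit3 alone was called (log2 fold change 0.56, SE 0.15, adjusted p = 0.008784), with Creld2 at 0.50 (SE 0.20, adjusted p = 0.09442) and Sdf2l1 at 0.51 (SE 0.26, adjusted p = 0.1989), and 12.5% of all genes were called. In both fits the members' share called was near that of all genes.

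The sexes were not shown to differ once a lesion was present. In MaAAD against FeAAD edgeR and DESeq2 called 0 of 10 members, with 1 at an unadjusted p under 0.05 (Trib3), where 0.0901% of all genes were called and 2.22% had an unadjusted p under 0.05. In MaNonAD against FeNonAD both tools called 0, with 0 at an unadjusted p under 0.05, where 0.0624% of all genes were called and 6.47% had an unadjusted p under 0.05. The difference between the sexes in the response of AAD against Con was tested directly and called no member with either tool, with 3 at an unadjusted p under 0.05 in edgeR. Of all genes 1.34% were called and 15.4% had an unadjusted p under 0.05. For Creld2 the male minus female difference of log2 fold changes was -1.15 (SE 0.37, adjusted p = 0.1021), for Sdf2l1 it was -1.31 (SE 0.51, adjusted p = 0.1879) and for Ddit3 -0.45 (SE 0.21, adjusted p = 0.2966). The corresponding test for NonAD against Con called 0 members, with 0 at an unadjusted p under 0.05 where 0.416% of all genes were called and 12.1% had an unadjusted p under 0.05. The test for the step from NonAD to AAD also called 0 members with edgeR and DESeq2, with 0 at an unadjusted p under 0.05, where 0.00% of all genes were called and 1.04% had an unadjusted p under 0.05.

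The wider ER folding list held 22 other chaperones, disulfide isomerases and oxidases. Against FeCon 15 rose, 0 fell and 7 did not pass, where 23.8% of all genes rose, with a median log2 fold change of 0.46 beside a median of 0.00 over all genes. Against MaCon 7 rose, 0 fell and 15 did not pass, where 18.9% of all genes rose, with a median of 0.14 beside -0.03. Pdia6, a disulfide isomerase, went from a median of 165.7 CPM in FeCon to 346.2 in FeAAD (log2 fold change 1.11, SE 0.19, adjusted p = 5.146e-06) and from 246.2 in MaCon to 328.4 in MaAAD (0.51, SE 0.20, adjusted p = 0.04121), where leaving out 1 library at a time lost the male call in 6 of 17 fits. P4hb, which is both a disulfide isomerase and the beta subunit of collagen prolyl 4-hydroxylase, rose by 0.65 (SE 0.12) in females and 0.52 (SE 0.13) in males on the log2 scale. Manf, an ER-resident factor that binds Hspa5, rose in FeAAD (0.85, SE 0.24, adjusted p = 0.003374) and had a log2 fold change of 0.13 (SE 0.25) in MaAAD. Without FeAAD 5 and 9, 10 of 22 rose and 1 fell in females, where 20.5% of all genes rose. Among males, 4 of 22 rose without MaAAD 7, MaCon 2 or MaCon 8, each left out alone. Of all genes, 16.4%, 18.9% and 17.8% rose in those male fits, so the share of the list was then near that of all genes.

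Of 12 genes that carry proteins into the ER and onwards to the Golgi, 7 rose and 0 fell in females, where 23.8% of all genes rose. The translocon subunit Sec61b rose most (log2 fold change 1.08, SE 0.22), from a median of 28.4 to 44.9 CPM and with a highest FeAAD value of 172.7 CPM, followed by Ssr2 of the translocon-associated complex (0.65, SE 0.15). In males 3 of 12 rose and 0 fell, a share near the 18.9% of all genes that rose, led by Ssr3 (0.45, SE 0.13) and the channel subunit Sec61a1 (0.38, SE 0.13). Without FeAAD 5 and 9 the female count was 4 of 12, beside 20.5% of all genes. Without MaAAD 7 the male count was 1 of 12, beside 16.4% of all genes.

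ER-associated degradation, the route by which misfolded proteins leave the ER for the proteasome, had calls in both directions. Over all genes 23.8% rose and 20.6% fell in FeAAD, and 18.9% rose and 16.1% fell in MaAAD, so the shares that rose were below those of all genes. In females 2 of 14 rose, namely Derl2 (0.40, SE 0.10) and Edem1 (0.40, SE 0.11), and 3 fell, among them Herpud1 (-0.37, SE 0.12, adjusted p = 0.01124) and Ube2j1 (-0.20, SE 0.09, adjusted p = 0.04887). In males Os9 (0.32, SE 0.09) and Derl3 (0.96, SE 0.39, adjusted p = 0.04885) rose and the ubiquitin ligase Syvn1 fell (-0.35, SE 0.14, adjusted p = 0.04308). No gene of this list fell in males with DESeq2, with its size factors, with no filter, with the replicate block or without MaCon 5, and 1 rather than 2 rose with no filter and without MaCon 5. Leaving out 1 library at a time lost the call of Syvn1 in 11 of 17 fits and of Derl3 in 12 of 17, and that of Ube2j1 in females in 11 of 19. The 3 female falls became 2 with no filter, with the replicate block or without FeAAD 5 and 9, and 1 with only the compared groups, and the 2 rises became 1 without FeAAD 5 and 9. Derl3, which plasma cells also express, was scarce, with medians of 0.85 CPM in MaCon and 1.43 CPM in MaAAD.

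The 3 sensors did not pass the test in either sex. Ern1, Eif2ak3 and Atf6 had log2 fold changes of 0.30, 0.06 and 0.09 in MaAAD and of -0.15, 0.01 and -0.15 in FeAAD, with adjusted p of at least 0.119. Of the 6 genes of sensors and their processing proteases, 1 rose (Mbtps2) and 1 fell (Atf6b) in males and 0 were called in females, beside 35.0% and 44.4% of all genes called. Atf6b was not called with no filter, with only the compared groups, with the clock index, or in 8 of 17 fits that each left out 1 library of MaCon or MaAAD. Eif2ak2, the kinase PKR that responds to double-stranded RNA and also phosphorylates eIF2alpha, rose in both sexes (0.42, SE 0.10 in males and 0.31, SE 0.10 in females).

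Targets of the integrated stress response, the branch downstream of ATF4, included genes called in both directions. Of 24 genes 10 rose and 5 fell in MaAAD, where 18.9% of all genes rose and 16.1% fell. In FeAAD 8 rose and 5 fell, where 23.8% of all genes rose and 20.6% fell. The share that fell was near that of all genes in both sexes. In males 5 rose without MaAAD 5 and 5 without MaAAD 7, where 17.6% and 16.4% of all genes rose, so these shares were near those of all genes. Without MaAAD 1, 4 or 7 or without MaCon 6, 3 fell. In those fits 37.1%, 33.1%, 29.3% and 32.8% of all genes were called in either direction. Slc7a11, the cystine importer, rose most: medians were 0.49 CPM in MaCon and 2.98 in MaAAD (log2 fold change 3.21, SE 0.57, adjusted p = 1.612e-05) and 0.36 in FeCon and 1.44 in FeAAD (3.23, SE 0.58, adjusted p = 1.24e-05). The highest aortas reached 23.1 CPM in MaAAD and 16.3 CPM in FeAAD. Group means were 0.59, 0.54, 0.38 and 0.71 CPM in MaCon, MaNonAD, FeCon and FeNonAD, beside 5.56 in MaAAD and 3.63 in FeAAD. The fold changes thus start from low levels, and the lesion groups raised the average count by which Slc7a11 was named. Without MaAAD 5 the male fold change went from 9.24 to 4.38 (log2 fold change 2.13, SE 0.52, adjusted p = 0.001179), and without FeAAD 5 the female one went from 9.39 to 5.29 (adjusted p = 0.0002297). Psat1, an enzyme of serine synthesis, had no overlap between controls and lesions in either sex, at 5.55 to 10.7 CPM in MaCon and 14.9 to 42.4 in MaAAD, and at 5.47 to 9.23 in FeCon and 10.4 to 59.6 in FeAAD. Its log2 fold changes were 1.77 (SE 0.22) and 1.75 (SE 0.21).

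Among those that fell, Stc2, a secreted glycoprotein, had log2 fold changes of -1.17 (SE 0.30) in males and -1.28 (SE 0.28) in females. Mthfd2, a mitochondrial folate enzyme, fell in FeAAD (-1.07, SE 0.27, adjusted p = 0.001353) and had a log2 fold change of -0.46 (SE 0.29) in MaAAD. Its medians were 48.2 CPM in FeCon, 10.8 in FeNonAD and 19.1 in FeAAD, so the lower level was not particular to aortas with a lesion. In males they were 29.9, 15.1 and 19.5 CPM in MaCon, MaNonAD and MaAAD. Of the 24 genes 2 rose and 4 fell in FeNonAD against FeCon, where 14.5% of all genes were called. Atf3, a stress-induced transcription factor, fell in MaAAD (-1.35, SE 0.48, adjusted p = 0.02542), a call lost in 5 of 17 fits with 1 library left out. Its MaCon values ran from 14.6 over a median of 23.1 to 137.0 CPM, beside a MaAAD median of 18.7 CPM. With these changes on both sides, Atf4, Ddit3 and Trib3 had no call in females and only Ddit3 one in males.

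**Figure D3:**
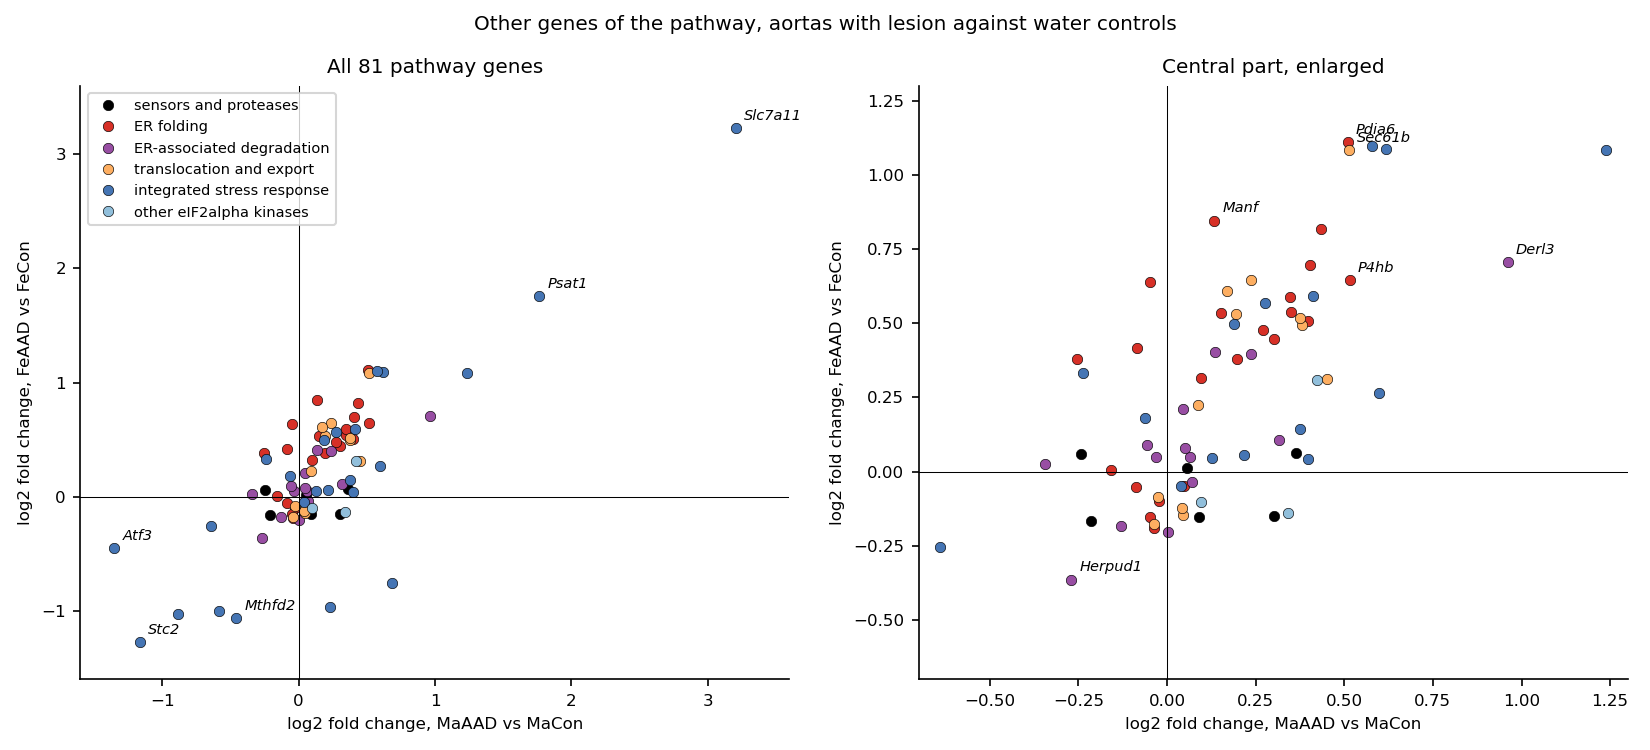
Log2 fold change of MaAAD against MaCon (horizontal) and of FeAAD against FeCon (vertical) for 81 other genes of the pathway, coloured by list; the right panel enlarges the centre. Slc7a11 lies at 3.21 and 3.23, Psat1 at 1.77 and 1.75 and Stc2 at -1.17 and -1.28, while most ER folding genes lie above 0 on the vertical axis.

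Of the 6 chaperone members 5 varied together from mouse to mouse. Deviations of log2 CPM from the group means over 48 libraries gave Pearson's r of 0.76 to 0.93 for the 10 pairs among Hspa5, Hsp90b1, Pdia4, Sdf2l1 and Creld2. The sixth, Dnajb9, had r of 0.53 with Hsp90b1, 0.41 with Pdia4, 0.36 with Creld2 and 0.34 with Sdf2l1. With Hspa5, r was 0.89 for Hsp90b1 (rho 0.90), 0.89 for Xbp1 (rho 0.85), 0.66 for Dnajb9 (rho 0.66) and 0.41 for Atf4 (rho 0.35). By permutation within groups, adjusted over 9 relations, p was 1.5e-05 for the first 3 and 0.00689 for Atf4, and r without the 2 most extreme libraries was 0.87, 0.86, 0.59 and 0.29. The permutation p of 1e-05 before adjustment was the smallest that 100000 resamples allow. Ddit3 and Trib3 did not follow this pattern, with r of -0.35 to 0.05 against the 6 chaperone members and Xbp1, and r of -0.29 (rho -0.30, permutation adjusted p = 0.06) and -0.02 (rho -0.11, permutation adjusted p = 0.873) with Hspa5.

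Among tested genes that are not members, the 5 most like Hspa5 by this measure were Hyou1 (r 0.94), Manf (0.87), Canx (0.85), Pdia6 (0.85) and Dnajc3 (0.83), all of them in the ER folding list. Of these, Canx, Pdia6 and Dnajc3 held an exact ERSE, and Hyou1 and Manf had no window. For Atf4 the nearest genes outside the members were Tbc1d10a, Rassf1, Twist2, Nectin1 and Ccdc86 (r 0.85 to 0.88), and for Trib3 Cdk18, Msc, Tmem140, Shpk and Ablim3 (r 0.66 to 0.78). None of these 10 was in a list of the pathway.

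Medians of an index of circadian clock genes differed between groups, and several members followed the index in FeCon. Its ranges overlapped between groups, and the groups were not tested against each other. The index was chosen after the data were seen. It was the mean log2(CPM + 1) of Arntl and Npas2 minus that of Per2, Per3 and Dbp. Its medians were -0.11 in MaCon and -3.05 in FeCon, -4.46 and -4.09 in MaNonAD and FeNonAD, and -4.45 and -3.75 in MaAAD and FeAAD. The paper states that feces were taken on the same day in all mice, in a set morning window directly before euthanasia and in random order. Collection times per aorta were not given in the sources used here. Relations with 10 members in 3 groups gave 30 p-values, which were adjusted together. In FeCon (n = 10) the index and Hspa5 gave r = 0.90 (rho 0.92, permutation adjusted p = 0.0039), and r was 0.90 without the 2 aortas farthest from the median. For Hsp90b1, Pdia4 and Xbp1 in FeCon r was 0.91, 0.92 and 0.91 (rho 0.94, 0.89 and 0.89; permutation adjusted p 0.0009, 0.0039 and 0.0039), and without 2 aortas 0.85, 0.83 and 0.87. For Sdf2l1 in FeCon r was 0.78 (permutation adjusted p = 0.0499) and rho 0.78 (permutation adjusted p = 0.0562), with r of 0.60 without 2 aortas. For Ddit3 in FeCon r was -0.76 (permutation adjusted p = 0.0499) and rho -0.71 (permutation adjusted p = 0.0904), with r of -0.87 without 2 aortas, so for both genes only Pearson's r passed. Creld2 and Dnajb9 in FeCon did not pass, with r of 0.73 and 0.70 (permutation adjusted p = 0.0652 for each), nor did Atf4 and Trib3.

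In MaCon no member passed. MaCon 5 had an index of -6.19 and the lowest Hspa5 of its group (365.7 CPM), while the other 9 had indices of -1.08 to 2.14. For Hspa5 r was 0.58 in MaCon (rho 0.15, permutation adjusted p = 0.216), -0.24 without MaCon 5 (chosen after its values were seen) and -0.72 without the 2 aortas farthest from the median. In MaAAD (n = 7) Xbp1 alone passed, with r = 0.96 (rho 0.93, exact permutation adjusted p = 0.00476; 0.92 without 2 aortas). FeAAD and FeNonAD each fell into separate sets by the index, so no r is given for them. The 4 FeAAD aortas with indices of -0.48 to 0.95 were the same 4 that had Hspa5 at 1087 CPM or more.

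**Figure D4:**
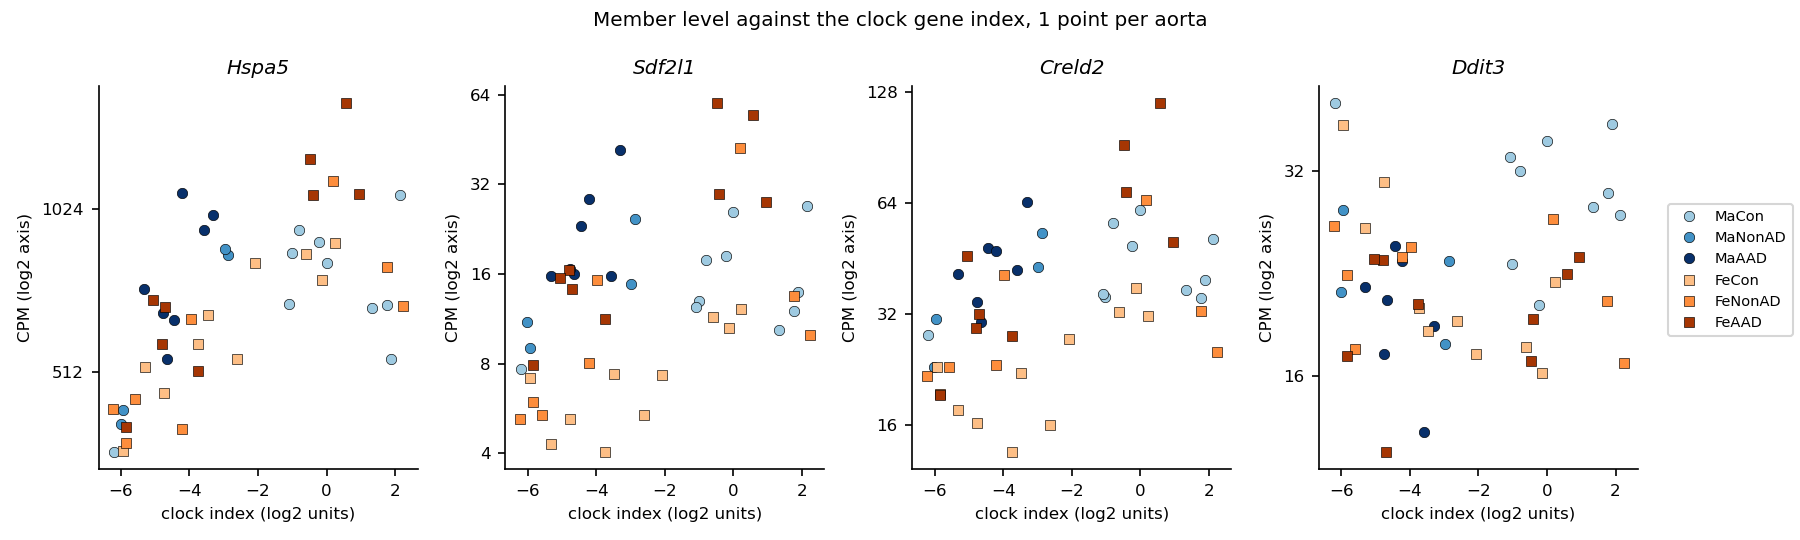
CPM on a log2 axis of Hspa5, Sdf2l1, Creld2 and Ddit3 against the clock index, 1 point per aorta, with circles for males and squares for females. All MaAAD aortas have an index of -3.31 or lower and 9 of 10 MaCon aortas one of -1.08 or higher, and MaCon 5 lies below all MaAAD aortas at -6.19.

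With the index as a covariate, 7 of 10 members were called in MaAAD against MaCon and 5 of 10 in FeAAD against FeCon, where 38.5% and 44.9% of all genes were called in that fit, so the female share was near that of all genes. In males the log2 fold changes then were 0.78 for Hspa5, 0.79 for Hsp90b1, 1.06 for Pdia4, 1.46 for Sdf2l1, 0.65 for Creld2, 0.31 for Xbp1 and -0.78 for Ddit3, with adjusted p of at most 0.02979. Hspa5 in females had 0.35 (SE 0.15, adjusted p = 0.04528). The difference between the sexes in the AAD response was -0.15 for Sdf2l1 and -0.40 for Creld2 in that fit, beside -1.31 and -1.15 without the covariate. The ER folding list then had 13 of 22 genes higher and 0 lower in males, and 15 higher and 0 lower in females, and the list of transport into and out of the ER had 7 of 12 higher in each sex, where 20.3% of all genes were higher in males and 23.7% in females. No MaCon aorta had an index within the range of MaAAD (-5.31 to -3.31), so in males the clock index and the group cannot be told apart, and the male values rest on a slope fitted over all 6 groups.

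Cell type markers differed between the same groups. Summed over 6 smooth muscle markers, levels were 27510 to 59714 CPM in MaCon and 11730 to 29183 in MaAAD, and 30042 to 51829 in FeCon and 13829 to 31672 in FeAAD. The 6 fibroblast markers summed to 5253 to 7072 CPM in MaCon, 7287 to 14432 in MaAAD, 5025 to 7501 in FeCon and 7262 to 14201 in FeAAD. The 6 macrophage markers summed to 96.5 to 270.1 CPM in MaCon, 391.5 to 1360 in MaAAD, 110.2 to 276.5 in FeCon and 287.4 to 1407 in FeAAD. The 6 neutrophil markers summed to 1.54 to 10.2 CPM in MaCon, 8.30 to 236.9 in MaAAD, 1.13 to 5.76 in FeCon and 5.88 to 881.5 in FeAAD. Sums of endothelial, T cell, B cell, adipocyte and heart muscle markers overlapped between Con and AAD in each sex. The part of these cell types in the changes of the members was not tested. Plasma cells express ER chaperones strongly. Of their markers, Jchain, Mzb1 and Tnfrsf17 had medians under 1 CPM in all 6 groups. Prdm1, which other cells also express, had medians of 0.30 CPM in MaCon, 1.74 in MaAAD, 0.22 in FeCon and 0.85 in FeAAD, with no overlap between MaCon and MaAAD or between FeCon and FeAAD. Derl3 had medians of 0.85 CPM in MaCon, 1.43 in MaAAD, 0.52 in FeCon and 1.21 in FeAAD, and these groups overlapped. The summed level of the 6 plasma cell markers in the table, of 8 listed, was mostly Sdc1, which other cells also express, and ran from 37.4 to 59.0 CPM in MaCon, from 71.3 to 161.3 in MaAAD, from 28.1 to 63.9 in FeCon and from 76.4 to 135.8 in FeAAD. Cytosolic heat shock genes answer misfolded protein outside the ER. Their summed medians were 4827 CPM in MaCon, 2206 in MaNonAD and 1652 in MaAAD. In females they were 3350 in FeCon, 2305 in FeNonAD and 1927 in FeAAD, so in both sexes the medians were also lower without a lesion. These sums were not tested.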

How the data were processed

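Total RNA from 48 mouse thoracic aortas was made into strand-specific mRNA libraries. Per the submitters' processing notes, Bowtie2, RSEM 1.3.1 and GRCm39 were used, and the authors deposited expected counts per gene, which need not be whole (4.99% were not), without scaling to library size. They were rounded to whole numbers. The design had assumed raw counts. Groups came from sample titles and columns were matched by name.

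The main model was edgeR's robust quasi-likelihood fit (edgeR 4.0.16, R 4.3.3) with filterByExpr, TMM and 1 mean per group over 48 libraries, and DESeq2 1.42.0 was an alternative. Standard errors were the absolute log2 fold change divided by the square root of F, and 95% intervals used the normal quantile. Both tools were tested on simulated data. Other alternatives were DESeq2 size factors, no low-count filter, no robust estimation, a 2-fold minimum, only the compared groups, the replicate number as a block, and libraries left out. The clock index as covariate, and leaving out each AAD or Con library in turn or FeAAD 5 and 9 together, were added after the data were seen.

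The members and lists were chosen with earlier results of these data known. From each list were named the 2 largest rises and falls among genes called in AAD against Con that averaged at least 10 counts, plus the 3 sensors. Correlations used log2(CPM + 1) with 100000 permutations within groups, or all permutations where n was 7. Exon lengths were from GENCODE, matched by symbol. Promoter windows were from RefSeq on GRCm38.p6, a different build from that of the counts, which carry no coordinates.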

Additional observations from a re-analysis of the deposited data

Results flagged for a closer look

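In 2 of 60 tests of a gene in a group, an aorta stood apart from the others by Dixon's criterion, and chance flags about 1 in 20 groups. Xbp1 in FeNonAD 8 was at 258.0 CPM, with the next aorta of that group at 181.0 CPM. Trib3 in MaNonAD 2 was at 4.33 CPM, with the next lowest of the 4 at 5.88 CPM.

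Eif2ak1, the heme-regulated eIF2alpha kinase, passed the interaction test for a response that differs between the sexes, but not under every alternative. Its medians were 37.0 CPM in MaCon, 47.3 in MaNonAD and 45.8 in MaAAD, and 49.2 in FeCon, 43.0 in FeNonAD and 44.7 in FeAAD. The male minus female difference was 0.48 (SE 0.11, edgeR adjusted p = 0.01502) for AAD against Con and 0.50 (SE 0.12, adjusted p = 0.04374) for NonAD against Con. With the clock index as a covariate neither was called. The NonAD difference was also not called with the replicate block, with only the compared groups, or without MaNonAD 1, 2 or 4, FeNonAD 8 or FeCon 10, each left out alone.

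Slc7a5, a large neutral amino acid transporter of the integrated stress response list, was named after its values were seen. It ran from 12.1 over a median of 16.4 to 23.0 CPM in MaCon and from 11.5 over 26.1 to 41.9 CPM in MaAAD, a rise (log2 fold change 0.68, SE 0.23, adjusted p = 0.01531) that was not called without MaAAD 5 (adjusted p = 0.06375) or without MaAAD 7 (adjusted p = 0.05935). In females it ran from 12.3 over 39.0 to 68.6 CPM in FeCon and from 14.1 over 23.9 to 34.5 CPM in FeAAD, a fall (-0.75, SE 0.21, adjusted p = 0.003498). The male minus female difference was 1.44 (SE 0.31, adjusted p = 0.01121). Between the controls, MaCon was lower than FeCon in both genes, by -1.25 in Slc7a5 (adjusted p = 7.797e-05) and -0.37 in Eif2ak1 (adjusted p = 0.0005518) on the log2 scale.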

How the results depend on the processing

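The count of 4 members called in FeAAD against FeCon was within 1.5 times under every alternative run. Shares of all genes called in the same fit are in brackets. In MaAAD against MaCon the 3 calls (35.0%) became 0 with a 2-fold minimum (11.4%) and 7 with the clock index (38.5%). In FeAAD against FeNonAD the 3 calls (18.2%) became 0 with a 2-fold minimum (7.04%), 0 with only the compared groups fitted (9.21%), 5 with the clock index (19.6%), 5 without FeNonAD 8 (20.6%), 1 without FeAAD 5 (10.4%), 1 without FeAAD 9 (14.4%) and 0 without both (7.80%). In MaCon against FeCon the 3 calls (14.3%) became 1 with a 2-fold minimum (1.51%), 1 with the clock index (12.5%) and 1 without FeCon 10 (9.76%). The share of all genes called ranged over the alternatives from 0.110% to 2.33% in MaNonAD against MaCon, from 0.00% to 5.33% in MaAAD against MaNonAD, from 0.0554% to 0.188% in MaAAD against FeAAD, and from 0.346% to 3.36% and from 0.117% to 1.16% for the sex differences in AAD and in NonAD against Con. The causes were not tested.

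Log2 fold changes that were not called turned sign in 38 cases. With the clock index, Xbp1 in MaAAD against MaCon turned to 0.31 and was then called, and in MaNonAD against MaCon Hspa5 turned to 0.42, Hsp90b1 to 0.33, Dnajb9 to 0.0329, Sdf2l1 to 0.85, Creld2 to 0.41 and Xbp1 to 0.21. Ddit3 in FeNonAD against FeCon turned to 0.0136 with the index and 0.0012 with no filter. Leaving out single libraries gave, in MaNonAD against MaCon, -0.1034 to 0.094 for Hsp90b1, -0.0722 to 0.1537 for Pdia4 and -0.43 to 0.1106 for Sdf2l1. In MaAAD against MaNonAD it gave -0.161 to 0.171 for Dnajb9, -0.0344 to 0.25 for Xbp1 and -0.0068 to 0.1394 for Atf4, and in FeAAD against FeNonAD -0.0726 to 0.0702 for Dnajb9. In MaAAD against MaCon it gave -0.0022 to 0.1901 for Hspa5, -0.0828 to 0.1335 for Creld2 and -0.469 to 0.016 for Trib3, and in FeAAD against FeCon -0.1337 to 0.0951 for Atf4. Without FeAAD 5 and 9, Xbp1 turned to -0.0415 against FeCon and -0.0275 against FeNonAD.

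Replicate numbers did not pair the samples: correlations of same-numbered libraries' deviations averaged -0.066 to 0.16 over the comparisons, and not every pair exceeded 0.1 in any. With the replicate block, 3 members were called in MaAAD against MaCon (32.8% of all genes), 4 in FeAAD against FeCon (42.3%), 2 in FeAAD against FeNonAD (14.7%) and 3 in MaCon against FeCon (12.5%). Under the block Hsp90b1, Sdf2l1 and Creld2 in MaNonAD against MaCon turned to 0.0928, 0.20 and 0.0727, Xbp1 and Ddit3 in FeNonAD against FeCon to 0.0355 and 0.0041, and Xbp1 and Atf4 in MaAAD against MaNonAD to -0.0159 and -0.0672. The smallest group, MaNonAD (n = 4), limits the comparisons it enters, and Trib3 has the lowest counts.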
